A study of Mus musculus with 4 samples.

Results

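The genes described here are 58 transcription factors of the non-Hox homeobox, paired-box (Pax) and T-box families, grouped as 8 Pax, 8 Lhx, 6 Nkx, 3 sine oculis homologs (Six2, Six3 and Six6), 6 Irx, 6 Dlx and 8 T-box genes, 4 Otx and Emx genes, 2 engrailed genes, and 7 genes of the Msx, Barx, Alx and Gsc type. They were taken from a fixed list of developmental regulators, and each was measured over its promoter, from 1000 bp upstream to 500 bp downstream of every annotated transcription start site (TSS) in the mouse build mm10. A CpG site was used when it had at least 20 reads in every tumor, which is called a qualified site here. Of the 58 genes, 55 had a qualified site, out of 20135 genes in all, and they held 2665 sites together. The 3 others were Tbx5, Tbx18 and Tbx20, and no value is given for them.

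These genes set the identity of organs and body regions in the embryo, and most are silent in adult tissues outside the organ they specify. In embryonic stem cells and many adult cells their promoters lie in CpG islands held by Polycomb complexes, which place repressive marks on histone H3 and H2A, and such islands are usually free of DNA methylation. In cancers, including lung cancers, the islands of this class are often found methylated.

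Reduced representation bisulfite sequencing, the method used, reads CpG-rich restriction fragments and counts each cytosine of a CpG as methylated or not. The DNA came from 4 tumors of mouse lung adenocarcinoma cells with a mutant p53 allele (p53R172HΔg/+), grown under the skin of the leg of syngeneic 129Sv/Ev mice, which were female and aged 12 to 16 weeks. Of these, 2 tumors were of the parental line (344SQP) and 2 of the line derived from it that resists anti-PD1 (344SQR). All 4 mice were given anti-PD1 at 10 mg/kg from day 4 for 4 doses, and tumors were taken 24 h after the last dose. The comparison between the lines asks how promoter methylation differs in tumors that no longer respond to anti-PD1. As a model it has 1 parental line and 1 resistant line derived from it, 2 mice for each, and bulk tumors in which cells of the host are mixed with tumor cells. Coverage summed over all CpG sites was 116794455 and 138331886 in parental replicates 1 and 2, and 160548303 and 174689402 in resistant replicates 1 and 2. A read counts there once for each site it covers, so these sums are not numbers of reads. Values below are means over the qualified sites of a promoter, in percent, and pairs of values are given in the order of replicate 1 and replicate 2.

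Most of these promoters were partly methylated in every tumor. The median promoter of the 55 genes was methylated at 22.3% and 33.9% in parental and 20.3% and 31.1% in the resistant tumors. Over all 20135 promoters the median was 3.12% and 3.34% in parental and 2.54% and 2.56% in resistant tumors. Mean methylation over the 4 tumors lay between 10% and 80% in 45 of the 55 genes (81.8%), against 29.3% of all promoters, and below 5% in 4 genes (7.27%), against 54.5% of all promoters. The 4 low genes were Dlx4, Irx5, Tbx15 and Otx1. Sites with 20 to 80% methylation made up 46.3% and 57.9% of the members' sites in parental and 44.7% and 46.2% in resistant tumors. At the 604870 qualified sites of all promoters the same class held 10.9%, 12.7%, 11.1% and 10.4%, in the same order of tumors. Most of the developmental genes thus had reads of both kinds at their sites, and few had promoters that were methylated throughout.

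The tumors of each line differed from each other more than the lines did. Replicate 2 had the higher value in the parental line at 50 of 55 genes and in the resistant line at 49, and in both lines at 47 (85.5%). The median excess of replicate 2 over replicate 1 was 11.1 percentage points in the parental line and 8.02 points in the resistant line. Over all promoters it was 0.128 and 0.050 points, and 36.0% had the higher value in replicate 2 of both lines. At the 45 genes with a mean between 10 and 80%, 93.3% were higher in replicate 2 of both lines, with a median excess of 12.9 points in parental and 11.6 points in resistant tumors. Among 938 other promoters in the same range that were CpG-rich (GC content of at least 55% and an observed to expected CpG ratio of at least 0.6) it was 85.6%, with 10.0 and 10.2 points. The labels number the tumors without saying what replicates of the same number share. Each gene below is therefore given with its value in all 4 tumors.

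Between the lines the developmental genes showed no common direction. On average they stood at 23.1% and 35.5% in parental and 23.3% and 33.3% in resistant tumors, which gives 29.3% ± 8.73 (SD, n = 2) in parental and 28.3% ± 7.07 (SD, n = 2) in resistant tumors. The difference of −1.01 points was smaller than the spread within either line, and the median gene differed by −0.263 points, against −0.234 over all promoters. The mean difference was −7.19 points without parental replicate 1, 5.16 without parental replicate 2, 3.99 without resistant replicate 1 and −6.01 without resistant replicate 2. At a minimum of 50 reads the mean was −0.359 and the median 0.0901 points. In size, the median difference between the lines was 4.09 points at these genes and 0.633 points over all promoters. The difference was larger than the gap between the tumors of both lines at 8 genes (14.5%), against 26.9% of all promoters. Among the 938 other CpG-rich promoters at 10 to 80% the median size was 4.23 points and this share 8.21%. At the 45 genes in that range they were 4.95 points and 6.67%, so these genes stood near other promoters of like methylation. A single value compared over 2 tumors against 2 cannot reach a p below 0.33 in an exact permutation test, so no such p is given for a gene.

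Each site was tested by a likelihood ratio test of the reads and a signed Stouffer z score joined the sites of each promoter, with the false discovery rate (FDR) taken over all promoters. The test treats each read as independent, so that spread among tumors of a line does not enter it. At an FDR under 0.05 it called 25 of the 55 genes lower in resistant tumors (45.5%, against 29.5% of all promoters) and 17 higher (30.9%, against 8.78%). A further 1 gene, Lhx8, was called with a z score and a mean difference of opposite sign, and 12 were not called. Among the 938 other CpG-rich promoters at 10 to 80% the test called 36.6% lower and 43.8% higher. Of the 45 genes in that range it called 42.2% lower and 37.8% higher. Both resistant tumors lay below both parental tumors at 12 of the 55 genes (21.8%, against 32.4% of all promoters) and above them at 2 (3.64%, against 7.55%). At 10 to 80% the shares were 15.6% and 2.22% of the 45 genes, against 10.3% and 2.99% of the 938 promoters. The counts turned with the tumors used. Without parental replicate 1 the test called 38 genes lower and 3 higher, against 28.8% and 7.33% of all promoters. Without resistant replicate 2 it called 42 lower and 1 higher, against 28.6% and 3.90%. Without parental replicate 2 the counts were 14 and 31, against 21.8% and 12.8% of all promoters, and without resistant replicate 1 they were 17 and 30, against 30.2% and 11.5%. The sign of the difference was the same in all 4 omissions at 20 genes, of which 15 were lower and 5 higher in resistant tumors. No share over all promoters is given for this count, so it does not set these genes apart. The quasi-likelihood test of edgeR, which counts the spread between tumors, called none of them when the threshold was an adjusted p of 0.05, against 0.0745% of all promoters, and gave an unadjusted p under 0.05 at 6 (10.9%, against 8.79% of all promoters).

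**Figure D1:**
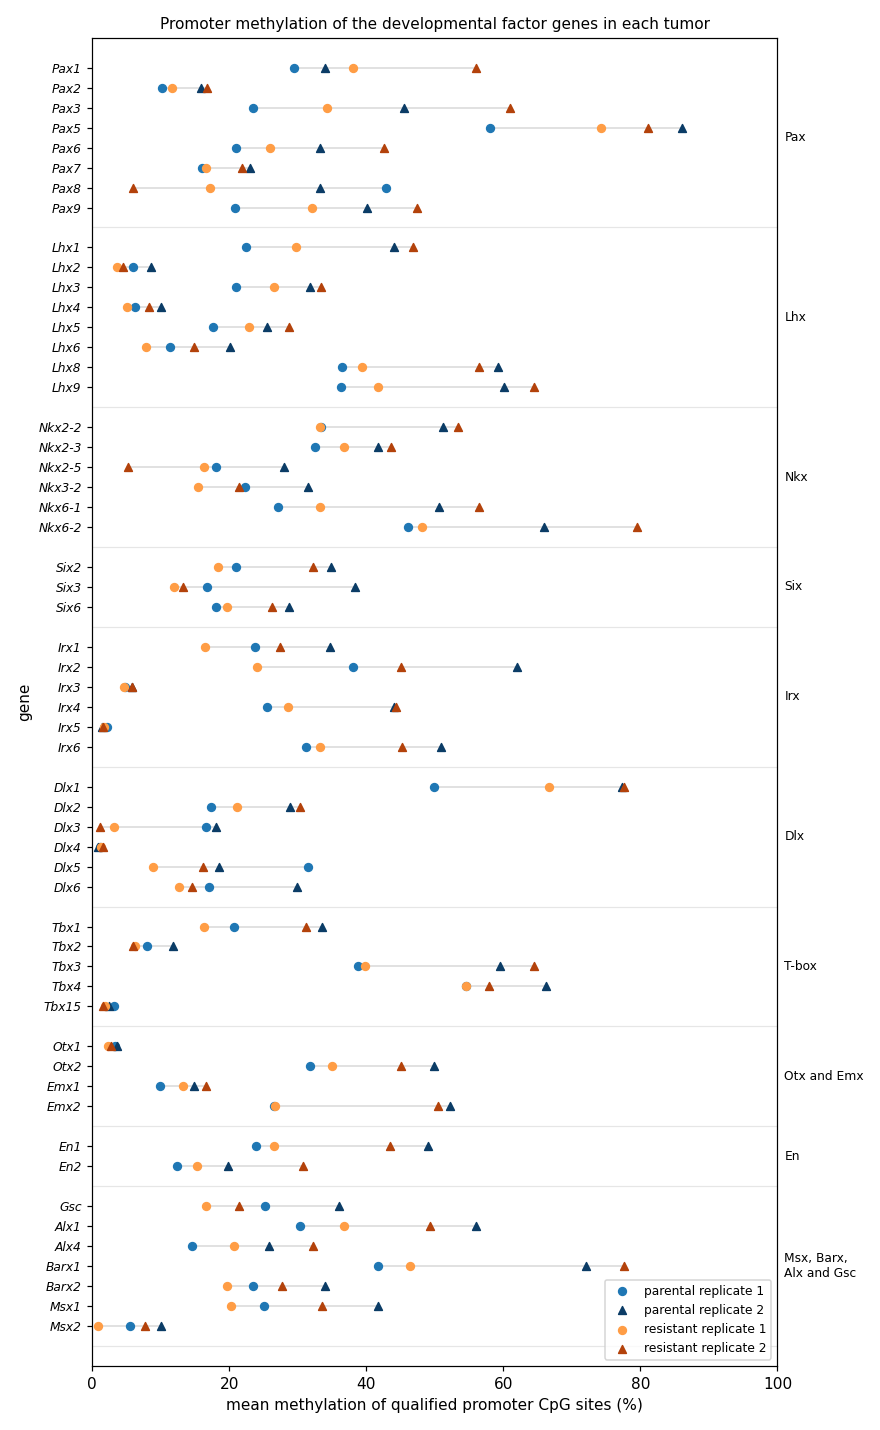
Mean methylation (x axis, %) of the qualified promoter CpG sites of each gene (y axis, by family) in the 4 tumors. Circles are replicate 1, triangles replicate 2, blue the parental and orange the resistant line, and the gray line spans the lowest and highest tumor. At 47 of 55 genes both triangles lie to the right of the circle of their line, and Dlx3 has its parental tumors at 16.7% and 18.0% and its resistant tumors at 3.10% and 1.1%.

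The Pax genes encode factors with a paired DNA-binding domain that direct the formation of organs such as the eye, kidney, thyroid and vertebral column. Their mean was 27.7% and 38.9% in parental and 31.3% and 41.6% in resistant tumors, and of the 8 genes 2 were called lower and 4 higher in resistant tumors, against 29.5% and 8.78% of all promoters. Pax1, which is needed for the vertebral column and the thymus, was methylated at 29.5% and 34.0% in parental and 38.1% and 56.1% in resistant tumors. Both resistant tumors were above both parental tumors, and all 14 sites had the higher mean in the resistant line (difference 15.3 points, FDR = 1.14e-22). The means of the lines were 31.7% ± 3.19 against 47.1% ± 12.7 (SD, n = 2), and the adjusted p by edgeR was 0.687. Without resistant replicate 2 the difference was 6.34 points, without resistant replicate 1 it was 24.3, and with the window placed instead at the 5′ end of the annotated gene, 3069 bp away, 9.94. The largest difference at a single site of Pax1 lay in the 5′ UTR at chr2:147365022, with 55.6% of 72 reads and 11.1% of 36 reads in parental and 56.6% of 76 reads and 82.1% of 95 reads in resistant tumors. Parental replicate 2, with a 95% Wilson interval of 4.41 to 25.3%, stood apart from the other tumors there.

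Pax3, which acts in neural crest and muscle precursors, was at 23.4% and 45.4% in parental and 34.2% and 60.9% in resistant tumors. The lines overlapped (difference 13.2 points, FDR = 3.51e-76). Without resistant replicate 2 the difference was −0.168 points. Pax6, a master regulator of eye development, was at 21% and 33.2% against 26% and 42.6% (parental against resistant), and its promoters went in opposite directions. At the TSS at chr2:105668900, 17 sites had 18.0% and 28.8% against 9.14% and 13.1%, with both resistant tumors below both parental tumors. At the TSS at chr2:105676129, 45 sites had 22.9% and 35.4% against 32.4% and 55.6%, with resistant replicate 2 the highest and parental replicate 1 the lowest. The gene's called difference of 7.18 points therefore joins starts that were lower with others that were higher. That difference was −1.12 points without resistant replicate 2. The start at chr2:105671860, with 1 site, was also lower in mean, at 37.5% and 53.3% against 24.4% and 52%. Pax3 and Pax6 were chosen after their values were seen.

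**Figure D2:**
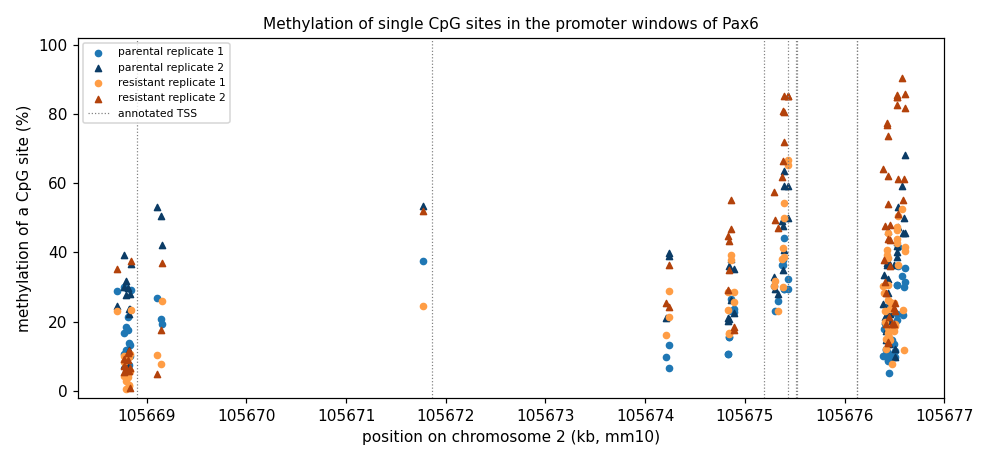
Methylation (y axis, %) of single CpG sites in the promoter windows of Pax6 against position on chromosome 2 (x axis, kb) in the 4 tumors, with annotated TSS as dotted lines. Around the TSS on the left, the sites average 18.0% and 28.8% against 9.14% and 13.1% (parental against resistant), and around the TSS on the right 22.9% and 35.4% against 32.4% and 55.6%.

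Pax9, which is needed for teeth, palate and thymus, also differed by TSS, with 27.6% and 55.4% against 43.9% and 65.8% at 22 sites around chr12:56691767 and 4.38% and 2.98% against 2.96% and 2.40% at 9 sites around chr12:56695639. The second start was thus near the unmethylated level in all 4 tumors. Over the whole gene the called difference of 9.20 points was −0.455 points without parental replicate 1. Pax7, a factor of muscle stem cells, was at 16.0% and 23.0% against 16.6% and 21.9%, and its difference of −0.263 points was 3.24 without parental replicate 2 and 2.38 without resistant replicate 1. Both genes were picked after their values were seen. Pax2, a kidney and optic stalk factor, had the lowest mean of the family, with 10.2% and 15.9% in parental and 11.6% and 16.8% in resistant tumors over 133 sites. It was not called (FDR = 0.693), the lines overlapped, and the difference was −1.68 points without parental replicate 1, 3.98 without parental replicate 2, 3.73 without resistant replicate 1 and −1.42 without resistant replicate 2, each of them called. With only the window at the 5′ end of the gene Pax2 was called higher, by 3.47 points (FDR = 4.19e-11). Pax5, the factor that commits cells to the B lineage, had the highest mean, with 58.0% and 86.1% in parental and 74.3% and 81.1% in resistant tumors. It rested on 5 sites of 20 to 73 reads and was not called (FDR = 0.146); without parental replicate 1 the difference was −8.42 points, and without parental replicate 2 it was 19.7. Pax8, a thyroid and kidney factor, had the largest difference of all 55 genes, −26.5 points, but over only 2 sites, 1 in coding sequence and 1 in an intron. They averaged 42.8% and 33.3% in parental and 17.2% and 5.90% in resistant tumors, with both resistant tumors below both parental tumors (FDR = 1.04e-13, adjusted p by edgeR 0.509). These sites had 27 to 85 reads each.

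Lhx genes join a homeodomain to a pair of LIM domains and specify neuron types, the pituitary, the limb and the gonad. Every one of the 8 had the higher value in replicate 2 of both lines, and the family mean was 19.7% and 32.4% in parental and 22.1% and 32.2% in resistant tumors. Lhx2, which acts in the eye, forebrain and hair follicle, had the lowest mean, at 5.99% and 8.55% in parental and 3.55% and 4.41% in resistant tumors over 76 sites. Both resistant tumors were below both parental tumors, a difference of −3.30 points (FDR = 1.62e-25, adjusted p by edgeR 0.574). It was −2.02 points without parental replicate 2 and −1.28 at a minimum of 50 reads. At its TSS at chr2:38339281 the sites were at 4.32% and 5.78% against 2.15% and 3.30%, and at chr2:38350759 at 14.9% and 23.4% against 11% and 10.3%. Both starts were lower in both resistant tumors.

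Lhx9, a gonad and limb factor, had the highest mean of the Lhx genes, at 36.3% and 60.1% in parental and 41.6% and 64.4% in resistant tumors. The lines overlapped, and the called difference of 4.82 points (FDR = 6.09e-05) was −7.08 points without parental replicate 1 and −6.59 without resistant replicate 2. With only the window at the 5′ end of the gene Lhx9 was not called (3.69 points, FDR = 0.0780). Lhx1, required for the head and kidney, had the largest difference of the family, 5.05 points, from 22.4% and 44.1% in parental and 29.7% and 46.8% in resistant tumors (FDR = 3.12e-15). The lines overlapped here too, and the difference was −5.79 points without parental replicate 1 and −3.54 without resistant replicate 2. Its 49 sites around the start at chr11:84525535 were at 31.0% and 65.0% against 41.7% and 69.7%, and its 36 sites around the start at chr11:84522331 at 10.6% and 15.5% against 13.4% and 15.8%. The gap between replicates was thus mostly at the first of these starts. Lhx8, which specifies cholinergic neurons, was nearly equal between the lines in its mean, at 36.5% and 59.2% against 39.3% and 56.5%. Its difference was 0.0240 points, and ran from −11.3 without parental replicate 1 to 11.4 without parental replicate 2. Of the other Lhx genes, Lhx6, which acts in forebrain interneurons, was at 11.4% and 20.1% against 7.90% and 14.9% and was called lower, by a difference of −4.35 points that was 0.0214 points without parental replicate 2. Lhx5, a forebrain and hindbrain factor, was at 17.7% and 25.4% against 22.8% and 28.7% and was called higher, by 4.2 points, which became 0.317 without parental replicate 1 and 1.26 without resistant replicate 2. These were chosen after their values were seen.

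Nkx genes pattern the ventral neural tube, heart, pancreas and axial skeleton. Of 6 measured, 2 were called lower, 3 higher and 1 was not called, where all promoters had 29.5% lower and 8.78% higher. Nkx2-5, a heart factor, was both the least methylated and the one with the largest difference, at 18.1% and 27.9% in parental and 16.3% and 5.24% in resistant tumors. All 12 sites lay in coding sequence and were lower in the resistant line (mean difference −12.3 points, FDR = 1.38e-27, adjusted p by edgeR 0.627). Resistant replicate 1 was within 2 points of parental replicate 1, and the highest and lowest tumors were parental replicate 2 and resistant replicate 2. Without resistant replicate 2 the difference was −6.72 points, and without parental replicate 2 it was −7.34. Nkx3-2, a factor of the axial skeleton and jaw, was at 22.3% and 31.5% against 15.5% and 21.4% over 32 sites, also without overlap (−8.49 points, −3.90 without parental replicate 2 and −13.1 without parental replicate 1).

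Nkx6-2, which acts in oligodendrocytes and the neural tube, had the highest mean of the family, at 46.0% and 65.9% in parental and 48.1% and 79.5% in resistant tumors. It was called higher by 7.87 points (FDR = 4.87e-67) with overlapping lines, and the difference was −2.07 points without parental replicate 1 and −7.84 without resistant replicate 2. Resistant replicate 2 was the highest of the 4 tumors and both replicates 1 were the lowest. The lines were apart at 9 of 70 sites in the higher and 2 in the lower direction. The site with the largest difference, in the 5′ UTR at chr7:139582543, had 42.9% of 84 reads and 40.7% of 81 reads in parental and 72.9% of 129 reads and 92.7% of 205 reads in resistant tumors. Nkx6-1, its relative in beta cells and motor neurons, was at 27.1% and 50.6% against 33.3% and 56.4%, and its called difference of 6.03 points was −5.72 without parental replicate 1 and −5.53 without resistant replicate 2. Nkx2-2, a factor of the pancreas and ventral neural tube, was at 33.4% and 51.1% against 33.3% and 53.3% and was not called. The genes outside the naming rule, Nkx3-2, Nkx6-1 and Nkx2-2, were added after their values were seen.

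The Six2, Six3 and Six6 genes, homologs of Drosophila sine oculis, act in the kidney, the eye and the forebrain, and all 3 measured were called lower in resistant tumors, as were 29.5% of all promoters. Six3, a forebrain and eye factor, had the lowest mean and the largest difference, at 16.8% and 38.4% in parental and 11.9% and 13.2% in resistant tumors. Parental replicate 2 was far above the other 3 tumors, and both resistant tumors were below both parental tumors. The difference of −15.0 points (FDR = 1.80e-22, adjusted p by edgeR 0.617) rested on 6 sites and was −4.22 points without parental replicate 2. Six2, which keeps nephron progenitors undifferentiated, had the highest mean of the family over the most sites of any gene here, 143, at 20.9% and 34.8% in parental and 18.3% and 32.3% in resistant tumors. Its difference of −2.56 points (FDR = 3.84e-34) was smaller than the gap within either line, and became 4.38 points without parental replicate 2 and 4.43 without resistant replicate 1. Six6, a retina and pituitary factor, was at 18.0% and 28.7% against 19.7% and 26.2%, and its difference of −0.416 points was 4.93 without parental replicate 2 and 2.83 without resistant replicate 1. Six2 and Six3 are neighbors with starts 74.7 kb apart on chromosome 17.

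The Irx genes lie in a pair of clusters of 3 genes each, Irx1, Irx2 and Irx4 on chromosome 13 and Irx3, Irx5 and Irx6 on chromosome 8, and act in the heart, limb and nervous system. The chromosome 13 genes were partly methylated, and on chromosome 8 only Irx6 was. Irx2 had the highest mean of the family and its largest difference, at 38.1% and 61.9% in parental and 24.1% and 45.0% in resistant tumors over 88 sites. It was lower in the resistant line at 80 of 88 sites (mean difference −15.5 points, FDR = 7.82e-296), yet resistant replicate 2 was above parental replicate 1, so the lines overlapped and the adjusted p by edgeR was 0.676. The difference ran from −3.54 points without parental replicate 2 to −27.4 without parental replicate 1. Irx1, at 23.8% and 34.7% against 16.5% and 27.3%, showed the same order of tumors, parental replicate 2 highest and resistant replicate 1 lowest, and its difference of −7.32 points was −1.87 without parental replicate 2. Irx4, the ventricular member of the cluster, was at 25.6% and 44.0% against 28.5% and 44.3% and was not called. The start of Irx2 is 665 kb from that of Irx1 and 632 kb from that of Irx4.

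Irx5 had the lowest mean of the Irx genes, at 2.22% and 1.45% in parental and 1.74% and 1.60% in resistant tumors over 73 sites, and was not called (FDR = 0.514). Irx3 stood at 4.71% and 5.74% against 4.64% and 5.77%. In contrast, Irx6, 317 kb from Irx5, was at 31.2% and 50.9% against 33.2% and 45.2%, higher in replicate 2 of both lines. Low and intermediate methylation thus occurred within a single cluster.

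Dlx genes are homologs of Drosophila distal-less that pattern the jaws, the limbs and forebrain interneurons, and they lie in convergent pairs. Dlx3, a factor of epidermis, hair, teeth and placenta, showed the clearest separation of the lines among these genes. Its 25 sites averaged 16.7% and 18.0% in parental and 3.10% and 1.1% in resistant tumors, with means of 17.3% ± 0.976 against 2.10% ± 1.41 (SD, n = 2). The difference of −15.2 points (FDR = 3.83e-129) was many times the gap within either line, and 21 of 25 sites had both resistant tumors below both parental tumors. It lay between −16.2 and −14.2 points when any 1 tumor was left out. By edgeR the log2 odds ratio was −3.28, with an unadjusted p of 4.77e-04 and an adjusted p of 0.152, which does not pass 0.05. The site with the largest difference lay in coding sequence at chr11:95120553, with 50.0% of 34 reads and 68.8% of 48 reads in parental and 5.60% of 36 reads and 0% of 87 reads in resistant tumors, and 95% Wilson intervals of 34.1 to 65.9% and 54.7 to 80.1% against 1.54 to 18.1% and 0 to 4.23%. Such intervals hold the error of counting alone, and amplified copies of a molecule count as separate reads in them.

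Dlx4, the partner of Dlx3 on the opposite strand with a start 26.1 kb away, was unmethylated in all tumors, at 1.20% and 0.905% in parental and 1.22% and 1.61% in resistant tumors, the lowest mean of the 55 genes. It was not called (FDR = 0.90), although both resistant tumors were above both parental tumors by fractions of a point. In the pair on chromosome 6, both genes were lower in resistant tumors without overlap. Dlx5, which acts in bone and jaw, was at 31.5% and 18.4% in parental and 8.92% and 16.1% in resistant tumors over 6 sites (difference −12.5 points, FDR = 1.25e-07, adjusted p by edgeR 0.675). Unlike most of the genes it had its highest value in parental replicate 1, and without that tumor the difference was −5.93 points and was not called. Dlx6 was at 17.1% and 29.9% against 12.6% and 14.5% over 30 sites (−9.94 points, −3.50 without parental replicate 2). The pair on chromosome 2, Dlx1 and Dlx2, both needed for forebrain interneurons, did not follow. Dlx1 had the highest mean of the family, at 49.8% and 77.3% in parental and 66.7% and 77.5% in resistant tumors, on 5 sites with as few as 21 reads, and was not called (FDR = 0.138); its difference was 22.3 points without parental replicate 2 and 14 without resistant replicate 1, both called, and −5.20 without parental replicate 1, not called. At a minimum of 10 reads Dlx1 was called, at 9.90 points (FDR = 0.0410). Dlx2 was at 17.3% and 28.8% against 21.1% and 30.3%, and its called difference of 2.65 points was −3.13 without parental replicate 1 and −1.94 without resistant replicate 2. Over the 6 Dlx genes the mean was 22.2% and 28.9% in parental and 18.9% and 23.5% in resistant tumors.

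**Figure D3:**
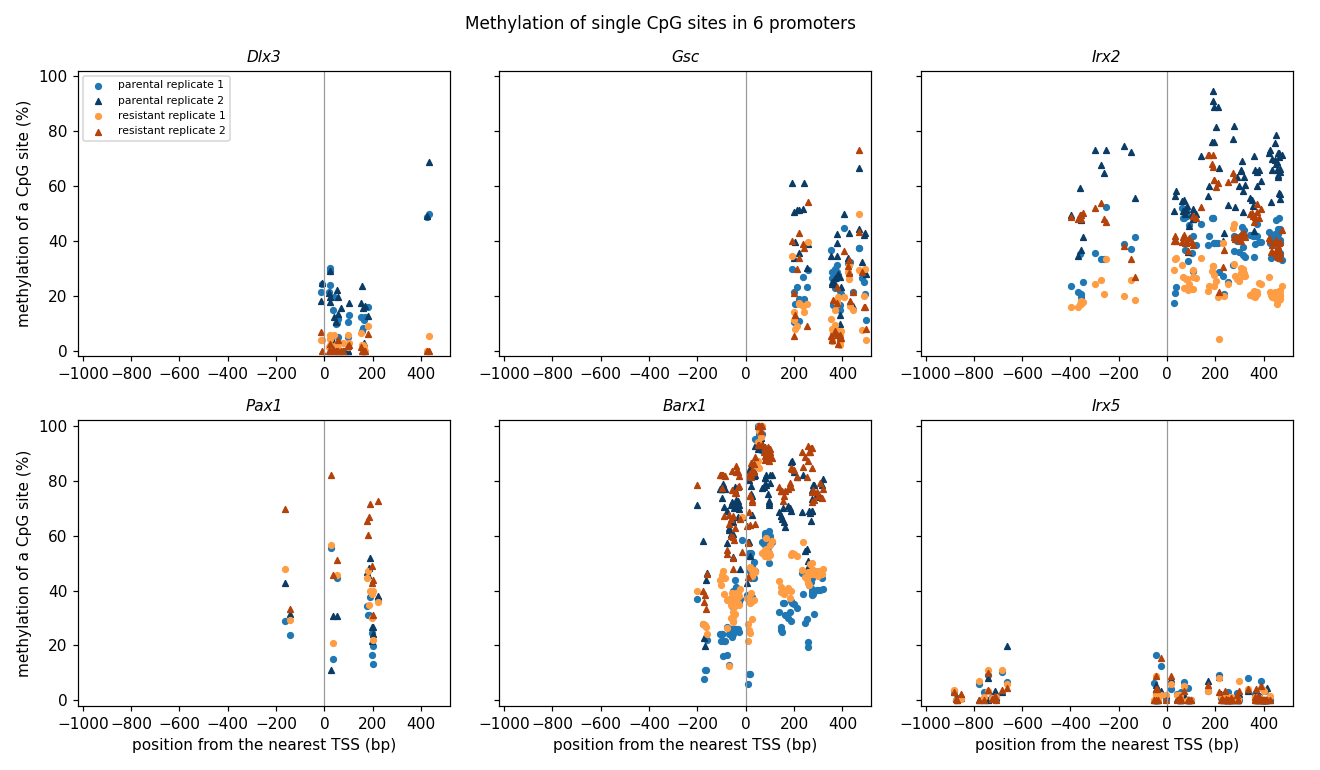
Methylation (y axis, %) of single CpG sites against the distance to the nearest TSS (x axis, bp) in the promoters of Dlx3, Gsc, Irx2, Pax1, Barx1 and Irx5, with the 4 tumors in the colors and symbols of the legend. Dlx3 averages 16.7% and 18.0% against 3.10% and 1.1% (parental against resistant), Barx1 41.7% and 72.0% against 46.3% and 77.6% and Irx5 2.22% and 1.45% against 1.74% and 1.60%.

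T-box genes share the DNA-binding domain first found in brachyury. Tbx1 acts in the pharyngeal arches, Tbx2 and Tbx3 in heart and limb, Tbx4 in hindlimb and lung mesenchyme and Tbx15 in skeletal muscle and fat. Of the 5 measured, 4 were called lower and 1 higher, against 29.5% and 8.78% of all promoters. Tbx4 had the highest mean and the largest difference of the family, at 54.5% and 66.2% in parental and 54.6% and 57.9% in resistant tumors. Parental replicate 2 was above the other 3 tumors, which lay close together, the lines overlapped, and the difference of −4.09 points (FDR = 3.44e-13) was 1.73 points without parental replicate 2. The lines were apart at 8 of 43 sites, all lower, and site differences ran from −28.8 to 25.4 points. At the site with the largest difference, 33 bp upstream of the first start at chr11:85886389, the values were 55.1% of 118 reads and 74.2% of 128 reads in parental and 39.7% of 141 reads and 32.1% of 156 reads in resistant tumors. Its neighbor Tbx2, 53.9 kb away, was low, at 7.96% and 11.7% against 6.27% and 5.89% over 63 sites, with both resistant tumors below both parental tumors. Its difference of −3.76 points was −1.89 without parental replicate 2.

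Tbx15 had the lowest mean of the T-box genes, at 3.20% and 2.38% in parental and 1.92% and 1.57% in resistant tumors over 72 sites. The start used for it lies 13379 bp from the 5′ end of the annotated gene. Both resistant tumors were below both parental tumors (difference −1.04 points, FDR = 9.92e-19, adjusted p by edgeR 0.449), and the difference was −0.631 points without parental replicate 1. Tbx3 was at 38.7% and 59.5% against 39.8% and 64.4%, with both replicates 2 above both replicates 1, and its called difference of 2.99 points was −7.43 without parental replicate 1 and −9.31 without resistant replicate 2. Tbx1 was at 20.7% and 33.5% against 16.4% and 31.1% over the whole promoter, but around its start at chr16:18590671 its 12 sites were at 4.12% and 10.9% against 1.05% and 1.45%, without overlap. The difference over its whole promoter, −3.34 points, was 3.08 without parental replicate 2 and 4.04 without resistant replicate 1. Tbx1, Tbx2 and Tbx3 were singled out after their values were seen.

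Otx1, Otx2, Emx1 and Emx2 pattern the forebrain, and En1 and En2 the border of midbrain and hindbrain. Otx1 was nearly unmethylated, at 3.31% and 3.57% in parental and 2.32% and 2.73% in resistant tumors over 88 sites. Both resistant tumors were lower by about a point (difference −0.913 points, FDR = 2.65e-05), a call that was lost without parental replicate 1, at −1.04 points. With the window placed instead at the 5′ end of the annotated gene, 1282 bp from the start used, the difference was 4.02 points (FDR = 0.0294). Otx2 had the highest mean of the Otx and Emx genes, at 31.8% and 49.8% in parental and 34.9% and 45.0% in resistant tumors. The resistant tumors lay between the parental tumors, and the difference of −0.860 points (FDR = 0.00605) was 8.14 points without parental replicate 2 and 4.2 without resistant replicate 1. Emx1 had the largest difference of the 4, 2.59 points, from 9.87% and 14.8% in parental and 13.3% and 16.6% in resistant tumors (FDR = 0.00153). The lines overlapped, and the call was lost without parental replicate 1 (at 0.118 points) and without resistant replicate 2 (at 0.937 points). Emx2 was nearly the same in tumors of the same number, at 26.5% and 52.2% against 26.6% and 50.5%.

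The engrailed genes went in different directions. En1 had the higher mean, at 23.9% and 49.0% in parental and 26.5% and 43.4% in resistant tumors, and was called lower (difference −1.52 points, FDR = 0.0313), with 11 points without parental replicate 2 and 6.93 without resistant replicate 1. At a minimum of 50 reads its difference was 0.955 points and was not called. En2 had the lower mean and the larger difference, 6.91 points, from 12.4% and 19.8% in parental and 15.2% and 30.8% in resistant tumors over 89 sites (FDR = 1.39e-76). Resistant replicate 2 was well above the other 3 tumors, and without it the difference was −0.876 points.

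The last group holds factors of the gastrula organizer (Gsc), of the face and skull (Alx1, Alx4, Msx1, Msx2) and of the stomach and teeth (Barx1). Gsc had the largest difference of the group, at 25.2% and 35.9% in parental and 16.5% and 21.5% in resistant tumors over 37 sites, all downstream of the start. Both resistant tumors were below both parental tumors, 33 of 37 sites were lower in the resistant line, and the means were 30.6% ± 7.61 against 19% ± 3.49 (SD, n = 2; difference −11.6 points, FDR = 1.96e-103, adjusted p by edgeR 0.507). Without parental replicate 2 it was −6.18 points. All sites of Gsc are shared with the promoter of the noncoding gene Gm10000, and all 88 sites of Irx2 with that of the noncoding gene Gm20554. The same holds for 63 of 63 sites of Tbx2 (2610027K06Rik), 29 of 29 of Lhx3 (Gm27196), 5 of 5 of Dlx1 (Dlx1as), 43 of 45 of Irx3 (Irx3os) and 40 of 47 of Lhx5 (Gm27199). Six3 shared 3 of its 6 sites with Gm28528 and 3 with Gm27801. Emx2 shared 10 of 16 (Emx2os), Otx2 29 of 55 (Gm49154) and Lhx1 37 of 85 (Lhx1os), and further genes shared smaller parts. Values at such sites cannot be given to either gene of a pair alone.

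Barx1 had the highest mean of the group, at 41.7% and 72.0% in parental and 46.3% and 77.6% in resistant tumors over 113 sites. Both replicates 2 were far above both replicates 1, so that the lines overlapped. The called difference of 5.09 points (FDR = 3.91e-33) was −10.1 points without parental replicate 1 and −10.5 without resistant replicate 2. Msx2, a factor of skull and tooth, had the lowest mean, at 5.54% and 10.1% in parental and 0.820% and 7.70% in resistant tumors. It rested on 5 sites and was not called (FDR = 0.139). Its difference of −3.56 points was −5.84 without parental replicate 1 and −7.00 without resistant replicate 2, both called. It was −1.28 without parental replicate 2 and −0.12 without resistant replicate 1. Msx1 was at 25.1% and 41.6% against 20.3% and 33.5% and Alx4 at 14.6% and 25.7% against 20.7% and 32.3%, and the called difference of Msx1, −6.48 points, was 1.81 without parental replicate 2 and 0.145 without resistant replicate 1. That of Alx4, 6.29 points, was 0.495 without resistant replicate 2 and 0.724 without parental replicate 1. Barx2 was split within its promoter: 18 sites upstream of the start were at 30.4% and 40.9% against 13.6% and 20.9%, without overlap, and 46 sites downstream at 20.7% and 31.2% against 22.1% and 30.4%. The downstream mean joins sites that went in opposite directions. The site 338 bp downstream was at 22.2% and 33.1% against 4.7% and 3%, and that 244 bp downstream at 7.3% and 26.4% against 56.2% and 73.9%. Site differences over the promoter ran from −41.2 to 48.2 points. Without parental replicate 2 the difference over the whole promoter of Barx2, −4.95 points, was 0.320. Alx1, a factor of the face, was at 30.3% and 56.1% against 36.8% and 49.2% and was not called. Msx1, Alx1, Alx4 and Barx2 were chosen after their values were seen.

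The sites lay all along the promoters. Of the 2665, 853 were upstream of the transcripts, 1127 in untranslated exon sequence, 394 in coding sequence and 291 in introns. Averaged by gene, coding sites of 29 genes were at 25.8% and 38.9% against 21.5% and 31.9%, and upstream sites of 44 genes at 23.4% and 35.8% against 23.7% and 34.4%. Sites in untranslated exon sequence of 44 genes were at 20.2% and 31.9% against 22.1% and 31.8%. These means rest on different genes. From 250 bp upstream to the start, 44 genes averaged 20.5% and 32.6% against 19.5% and 30.5%, and at −1000 to −750 bp 13 genes averaged 25.2% and 37.2% against 25.9% and 36.5%. Of the 55 promoters 27 were CpG-rich (49.1%), against 29.4% of all promoters, and their median ratio of observed to expected CpG was 0.618, against 0.575.

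The sequences behind these values are shown for genes that separated the lines, genes that separated the replicates and a gene that stayed low, read from the mouse reference (GRCm38, which is mm10) on the strand of the gene from 5′ to 3′, with the CpGs that had a qualified site in capitals. The first stretches lie in coding sequence. Windows were cut short or passed over where they touched annotated untranslated sequence, so a window across it can hold more sites. Among the windows left, of at most 200 bases, those shown have the most qualified CpGs. Gsc (chr12:104472828-104472983, minus strand) has 19 of them, at 27.0% and 31.7% against 15.9% and 18.0%. Pax1 (chr2:147365166-147365221, plus strand) has 9, at 27.2% and 36.6% against 37.0% and 55.9%. The first was lower and the second higher in both resistant tumors.
Gsc: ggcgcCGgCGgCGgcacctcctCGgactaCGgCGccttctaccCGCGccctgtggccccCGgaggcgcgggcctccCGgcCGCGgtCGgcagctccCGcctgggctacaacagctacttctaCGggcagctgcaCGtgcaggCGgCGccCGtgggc
Pax1: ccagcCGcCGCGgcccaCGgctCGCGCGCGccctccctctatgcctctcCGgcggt
Irx2 (chr13:72629092-72629291, plus strand), Barx1 (chr13:48663131-48663324, plus strand) and Nkx6-2 (chr7:139582327-139582526, minus strand) have 33, 29 and 22 qualified CpGs. Irx2 averaged 40.2% and 64.4% against 23.7% and 42.3% there. Barx1 averaged 35.1% and 70.7% against 45.6% and 80.9%. Nkx6-2 averaged 43.6% and 68.0% against 48.1% and 80.6%, and in all 3 stretches replicate 2 was above replicate 1 of its line.
Irx2: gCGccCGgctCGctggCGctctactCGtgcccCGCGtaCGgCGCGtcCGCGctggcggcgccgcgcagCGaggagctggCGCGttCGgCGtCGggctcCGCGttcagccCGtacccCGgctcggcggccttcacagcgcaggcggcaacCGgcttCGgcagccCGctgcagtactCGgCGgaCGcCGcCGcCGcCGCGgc
Barx1: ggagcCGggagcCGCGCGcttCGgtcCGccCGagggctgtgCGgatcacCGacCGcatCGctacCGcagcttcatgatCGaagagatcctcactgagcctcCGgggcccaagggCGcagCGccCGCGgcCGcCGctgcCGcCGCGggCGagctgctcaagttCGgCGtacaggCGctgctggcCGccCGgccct
Nkx6-2: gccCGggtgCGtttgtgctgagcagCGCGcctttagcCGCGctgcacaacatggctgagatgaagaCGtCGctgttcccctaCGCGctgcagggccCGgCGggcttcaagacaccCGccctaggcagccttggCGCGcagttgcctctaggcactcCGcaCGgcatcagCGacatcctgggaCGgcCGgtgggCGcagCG
For contrast, a stretch upstream of Irx5 (chr8:92356739-92356920, plus strand) has 9 qualified CpGs that averaged 2.31% and 1.61% against 2.61% and 2.01%.
Irx5: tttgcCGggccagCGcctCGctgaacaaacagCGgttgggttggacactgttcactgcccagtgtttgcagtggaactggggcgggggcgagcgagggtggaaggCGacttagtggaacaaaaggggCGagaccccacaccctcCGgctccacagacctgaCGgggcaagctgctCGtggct

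Related developmental genes were partly methylated too. Of 25 other Pax, LIM, Nkx, sine oculis and T-box genes 21 had qualified sites, 8 called lower (38.1%) and 8 higher (38.1%), against 29.5% and 8.78% of all promoters, with means of 27.5% and 36.6% in parental and 28.4% and 36.2% in resistant tumors. The largest differences among those with at least 5 sites were at Isl1, a factor of motor neurons and the heart, with 39.6% and 63.2% in parental and 51.2% and 76.2% in resistant tumors (12.3 points), and at Lmx1b, a factor of the dorsal limb and kidney, with 26.8% and 48.7% in parental and 35.5% and 58.1% in resistant tumors (9.08 points). Both overlapped between the lines. The difference at Isl1 was 0.464 points without parental replicate 1 and −0.251 without resistant replicate 2, and that at Lmx1b −1.89 and −2.25. Of 50 other homeobox genes of the paired and Antennapedia types 44 were measured, 11 lower (25%, against 29.5% of all promoters) and 17 higher (38.6%, against 8.78%), with means of 24.1% and 36.3% in parental and 25.9% and 37.4% in resistant tumors. The largest difference was at Rax, which is needed for the retina. Rax was at 23.3% and 36.2% in parental and 42.1% and 65.3% in resistant tumors, without overlap (24.0 points, FDR = 1.44e-171, adjusted p by edgeR 0.556). Its difference was 12.4 points without resistant replicate 2. Replicate 2 was the higher in both lines at 15 of 21 and at 40 of 44 genes of these lists, as at most of the genes above.

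Genes of the Polycomb complexes themselves were mostly unmethylated. All 28 had qualified sites, and their median was 1.37% and 1.40% in parental and 1.32% and 1.31% in resistant tumors. A mean below 5% was found at 25 (89.3%), against 54.5% of all promoters and 78.4% of CpG-rich promoters. The median over CpG-rich promoters was close to theirs, at 1.52% and 1.54% in parental and 1.37% and 1.44% in resistant tumors. Ezh2, the methyltransferase of Polycomb complex 2, was at 1.43% and 1.03% against 1.14% and 1.16%, and its partners Eed and Suz12 at 0.528% and 0.980% against 1.19% and 1.82% and 1.27% and 1.18% against 0.977% and 1.18% (parental against resistant). The largest differences were at Rbbp7, which is X-linked, with 18.0% and 17.1% against 16.9% and 10.4%, and Phc2, with 7.00% and 14% against 11.1% and 17.3%. Phc2 was higher in replicate 2 of both lines, and its difference of 3.68 points was 0.178 without parental replicate 1. That of Rbbp7, −3.87 points, was −0.603 without resistant replicate 2.

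Markers of the cells a tumor may hold were read in the same way. Of 14 leukocyte genes 5 had qualified sites, with a mean of 43.2% and 49.0% in parental and 39.4% and 39.6% in resistant tumors, from Lcp1 at 20.1% and 21.4% against 19.3% and 19.8% to Cd3e at 81.2% and 75.8% against 81.5% and 46.6%. Endothelial genes (4 of 6 measured) had a mean of 37.6% and 50.0% in parental and 27.4% and 49.2% in resistant tumors, from Kdr at 8.48% and 13.2% against 11.4% and 26.8% to Tie1 at 58.5% and 89.1% against 46.2% and 75.9% on 1 site. Fibroblast genes (4 of 7) had a mean of 38.1% and 44.8% in parental and 34.8% and 42.4% in resistant tumors, from Col1a2 at 20.8% and 25.6% against 17.9% and 14.4% to Col1a1 at 90.0% and 100% against 81.4% and 96.1%. Skeletal muscle genes (6 of 7) had a mean of 37.6% and 42.4% in parental and 37.1% and 34.0% in resistant tumors, from Mylpf at 1.40% and 1.37% against 1.28% and 1.40% to Myog at 82.7% and 85.8% against 79.5% and 58.5%. Epithelial and lung genes (7 of 10) had a mean of 12.4% and 12.1% in parental and 11.6% and 10.5% in resistant tumors, from Krt18 at 5.69% and 4.68% against 2.70% and 4.72% to Cldn4 at 39.8% and 30.7% against 35.5% and 16.7%. Epcam and Cdh1, which mark epithelial cells, were at 4.51% and 5.47% against 5.77% and 4.56% and 6.25% and 6.04% against 5.76% and 5.83%, and the lung factor Nkx2-1 at 9.86% and 14.5% against 12.7% and 18.7%. Some ends of these ranges rest on few sites, with 2 for Cd3e, 1 for Col1a1, 2 for Myog and 3 for Cldn4. The share of tumor and host cells in each sample and its part in the differences between replicates and lines was not tested.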

How the data were processed

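Per the labels, reads were trimmed with Trim Galore 0.4.1 and cutadapt 1.9.1 and aligned to mm10 with Bismark and Bowtie 1.1.2, and the authors deposited, for each CpG cytosine in methylKit form, its coverage as a count of reads and the share of methylated and unmethylated reads as a percent. From these files the means, tests and differences were computed with Python 3.11.15 (numpy 2.4.6, scipy 1.17.1, pandas 2.3.3), with R 4.3.3 and edgeR 4.0.16 for the quasi-likelihood test. Start sites were those of the GENCODE vM21 basic set, the strands of a CpG were kept apart as separate sites, and the p of a site was not taken below 2.2e-16. The Benjamini-Hochberg adjustment ran over all 20135 promoters. The genes named by rule were those called with at least 5 sites, no overlap between the lines and a difference of at least 10 points, and in each family the highest and lowest mean and the largest difference. Alternatives were a minimum of 10 or 50 reads, merged strands, a single window at the 5′ end of the annotated gene, pooled reads, a minimum difference of 10 points, edgeR, the replicate block and each tumor left out. Dlx2, Dlx6, Irx1, Irx3, Irx4, Irx6, Six6 and Emx2 were described outside the naming rule, like the genes marked as chosen after their values were seen. The members and lists were chosen with earlier results of these data known. Some alleles, genes and sequences are not reported here.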

Additional observations from a re-analysis of the deposited data

How the results depend on the processing

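The counts of 25 genes called lower and 17 higher kept to within 1.5 times their size with a minimum of 10 reads (25 and 18, against 29.5% and 8.54% of all promoters), 50 reads (21 and 17 of 52 genes tested, against 28.5% and 9.24%), merged strands (23 and 17, against 29.8% and 8.80%) and the window at the 5′ end of the annotated gene (24 and 16 of 52 tested, against 28.7% and 8.66%). A minimum difference of 10 points left 7 and 2, against 9.39% and 1.60% of all promoters. The edgeR test without a block called 0 and 0 at an adjusted p under 0.05. With each tumor left out, the lower count was 14 to 42, the higher count 1 to 31, the mean difference −7.19 to 5.16 points and the median −5.93 to 4.93 points. Among the genes named by rule, the range with each tumor left out crossed zero at Lhx9 (−7.08 to 16.7 points), Pax5 (−8.42 to 19.7 points), Nkx6-2 (−7.84 to 23.6 points), Lhx1 (−5.79 to 15.9 points), Barx1 (−10.5 to 20.7 points), Pax2 (−1.68 to 3.98 points), En1 (−14.1 to 11 points), Tbx4 (−9.90 to 1.73 points), Otx2 (−9.86 to 8.14 points), Six2 (−9.55 to 4.43 points), Dlx1 (−5.20 to 22.3 points), Irx5 (−0.547 to 0.217 points) and En2 (−0.876 to 14.7 points). En1 was 0.955 points higher at 50 reads and 0.738 higher with merged strands, and Otx1 4.02 higher with the window at the gene's 5′ end. That end is not among the starts used at 7 of 55 genes, among them Otx1, Pax1 and Nkx2-5 (1282, 3069 and 3444 bp away), whose values there come from another window. The end lies farthest from the start used at Tbx15, Lhx4 and Nkx2-2 (13379, 9657 and 7839 bp away). The window at the 5′ end moved Pax1 to 9.94 points, Nkx2-5 to −7.36, Six3 to −9.18, Lhx1 to 7.64, Otx2 to −2.66, Pax2 to 3.47 (then called) and Lhx9 to 3.69 (no longer called). A minimum of 50 reads moved Lhx2 to −1.28 points, Lhx9 to 2.87, Emx1 to 4.82, Otx1 to −0.593, Dlx4 to 0.650 and Otx2 to −1.72. A minimum of 10 reads moved En1 to −2.30 points, Msx2 to −2.13, Otx2 to −0.436 and Dlx1 to 9.90 (then called). Merged strands moved Otx2 to −1.61 points, and pooled reads moved it to −2.98, Emx1 to 5.71 and Dlx4 to 0.577. The median difference over the genes was 0.0901 points at 50 reads, −1.16 at the 5′ end, −0.416 at 10 reads, −0.146 with merged strands and −0.971 with pooled reads, and the mean −0.359 at 50 reads. The cause of the other changes was not tested. Coverage limits single sites, since at 20 reads 1 read is 5 points.

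With the replicate number as a block, edgeR called 13 genes lower and 5 higher, against 9.87% and 2.27% of all promoters. A Mantel-Haenszel test per site called 25 and 18, against 29.0% and 8.31%, and Dlx1 was among them (FDR = 0.0436). The excess of replicate 2 over replicate 1 in the parental line correlated with that in the resistant line over the genes (r = 0.700) and over all promoters (r = 0.663). The labels do not say what a number marks, and 2 pairs do not establish a pairing.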
